A study of Rattus norvegicus with 9 samples.

Results

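The core circadian clock loop was followed here through 10 genes in the pancreatic islets of rats fed a cafeteria diet or standard chow. The genes were Bmal1 (also called Arntl), Clock, Npas2, Cry1, Cry2, Per1, Per2, Per3, Nr1d1 and Nr1d2. They are 10 of the 14217 genes that the platform annotation names alone on at least 1 probe set, and all 18 probe sets carrying 1 of these symbols and no other were kept. A probe set is a group of short array probes read as 1 transcript measurement. Of the 18, 15 reached the signal level required for testing, and each of the 10 genes had at least 1 of them.

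The cafeteria rats ate a choice of palatable fat-rich foods with 66% of the calories from fat (5 arrays). The standard rats ate standard chow with 8% (4 arrays). All were male Wistar rats, an outbred strain, aged 7 weeks at the outset, caged singly under alternating light and dark, and kept on their diet for 30 days before islets were isolated with collagenase and picked by hand. The labels call the samples independent biological replicates, and each islet RNA was read on 1 Affymetrix Rat Genome 230 2.0 array as MAS5 signals, which are linear intensities. A 5th standard sample that the design text names was not analysed here. Samples were placed by title. A separate diet entry contradicts the title in 9 of 9 samples; if that entry were right, each difference below would have the other sign. The sources used here do not give the hour of the day at which islets were isolated.

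The clock is a feedback loop of transcription that runs in nearly every mammalian cell. CLOCK or its relative NPAS2 pairs with BMAL1 on E-boxes, short DNA elements, and switches on the Per, Cry and Nr1d genes. PER and CRY proteins then return to the nucleus and block that pair, while NR1D1 and NR1D2 (REV-ERB alpha and beta) bind ROR elements and repress Bmal1, Npas2, Clock and Cry1. In beta cells the clock times insulin secretion, and mice that lack Bmal1 in the pancreas become diabetic. In a running clock the transcripts of these genes rise and fall through the day in different phases, with Bmal1 roughly opposite to Nr1d1.

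The start-site sequences of 3 genes are printed because they belong to an activator, a Per repressor and a nuclear receptor repressor described below. RefSeq windows of the GRCr8 build, 250 bases before and 50 after an annotated start, were given for 9 of the 10 genes (11 windows). Both strands were searched for the E-box CACGTG, the E-prime box CACGTT, the ROR element core TNGGTCA, the D-box TTANGTAA and the CRE TGACGTCA. Capitals mark the matches, and positions are those of the first base of a match before the start site. The Bmal1 window, chr1:176766078-176766377 on the plus strand, holds a ROR element core at -16. The Per2 window, chr9:99496944-99497243 on the minus strand, holds a D-box at -192 and an E-prime box at -62. One of the Nr1d1 windows, chr10:84229405-84229704 on the minus strand, holds an E-box at -191.
Bmal1: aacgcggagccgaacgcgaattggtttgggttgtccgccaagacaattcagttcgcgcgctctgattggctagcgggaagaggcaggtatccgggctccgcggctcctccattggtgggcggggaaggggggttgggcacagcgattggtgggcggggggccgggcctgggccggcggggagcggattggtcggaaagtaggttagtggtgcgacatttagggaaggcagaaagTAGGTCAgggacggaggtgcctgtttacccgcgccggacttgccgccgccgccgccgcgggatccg
Per2: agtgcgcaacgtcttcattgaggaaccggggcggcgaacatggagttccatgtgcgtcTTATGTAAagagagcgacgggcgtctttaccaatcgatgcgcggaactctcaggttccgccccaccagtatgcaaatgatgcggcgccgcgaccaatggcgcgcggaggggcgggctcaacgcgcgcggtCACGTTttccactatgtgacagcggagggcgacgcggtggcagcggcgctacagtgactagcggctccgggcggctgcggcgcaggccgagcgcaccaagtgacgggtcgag
Nr1d1: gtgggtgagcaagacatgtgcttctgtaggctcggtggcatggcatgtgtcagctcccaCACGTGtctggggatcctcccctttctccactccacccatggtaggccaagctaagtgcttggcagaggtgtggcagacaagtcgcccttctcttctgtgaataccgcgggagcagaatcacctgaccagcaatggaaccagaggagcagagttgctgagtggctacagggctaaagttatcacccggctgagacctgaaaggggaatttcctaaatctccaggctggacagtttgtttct
Among the 9 genes, 1 had an E-box in a window, 3 an E-prime box (Cry2, Per2 and a second Nr1d1 window), 1 the ROR element core, 1 a D-box and 0 a CRE. The shares of all 33469 rat windows holding these letters were 6.42%, 4.83%, 11.1%, 2.24% and 1.83%, in the same order. No matches in these windows shared bases. A match describes the letters and not a bound site, and these short windows leave out most of each gene's regulatory DNA.

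Across the loop, the cafeteria arrays had lower mean signals of Nr1d1 and Nr1d2, higher mean signals of Cry1 and Per2, and Bmal1 signals that overlapped those of the standard arrays. Folds are given as log2 of cafeteria over standard after 16 was added to each signal, with the standard error (SE) from limma, a linear model fitted to all 18625 probe sets that passed the signal filter. None of the 15 member probe sets passed at an adjusted p under 0.05 (adjusted p 0.839 to 0.977 by limma), and over all tested probe sets 0% passed. At an unadjusted p under 0.05, 2 of the 15 were higher in cafeteria islets, where 3.01% of all tested probe sets were, and 6 of 15 were lower, where 2.79% of all were. Every Nr1d2 probe set was among those 6, so the count holds repeat readings of the same gene. The median size of the log2 fold, sign left aside, was 0.42 over the 15 and 0.13 over all tested probe sets. With the sign kept, the medians were -0.08 and -0.01. The differences of the loop therefore ran in both directions. In islets, which hold several cell types, fewer cells of a type and less RNA per cell cannot be told apart.

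**Figure D1:**
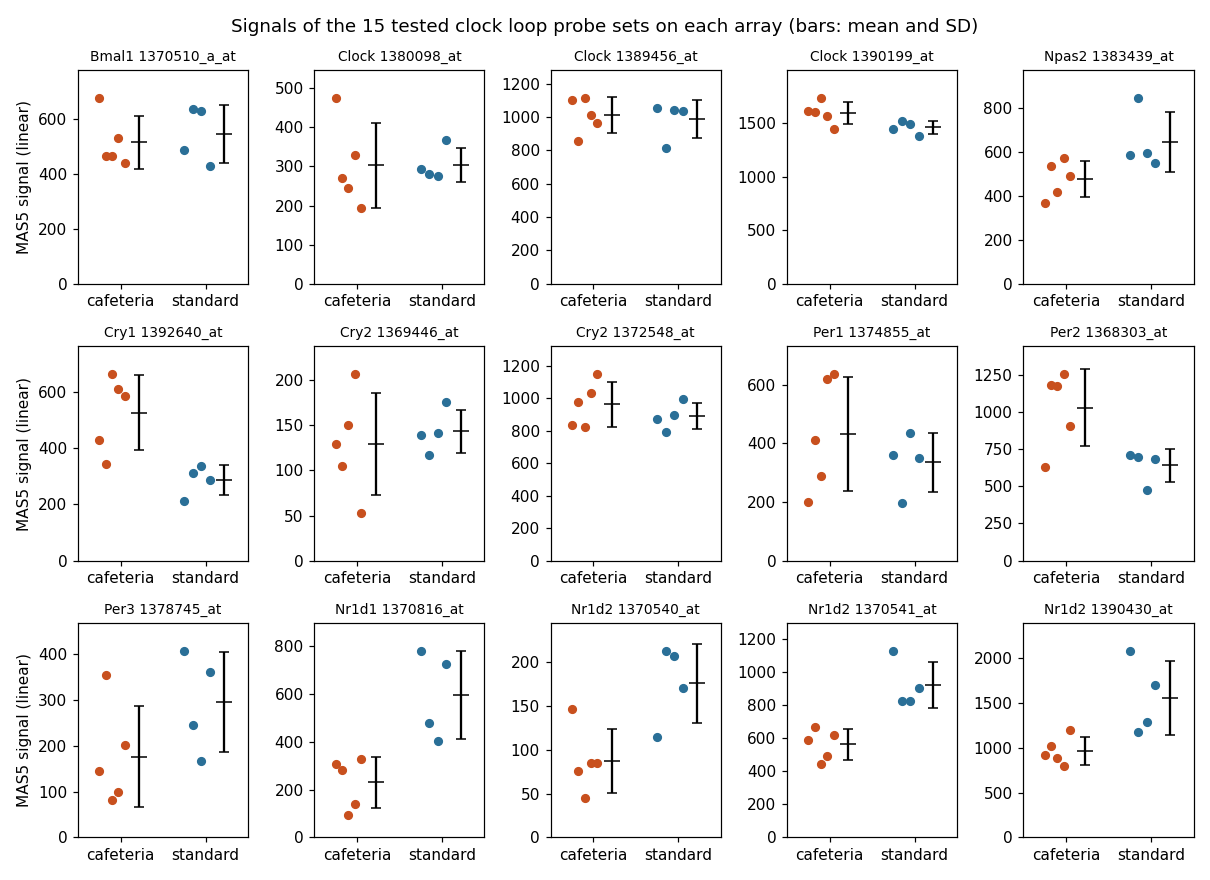
MAS5 signal (linear, from 0) of each of the 15 tested probe sets on each array, with 5 cafeteria arrays on the left and 4 standard arrays on the right of each panel; bars give the mean and SD. The groups stand apart for Cry1, for Nr1d1 and for Nr1d2 probe set 1370541_at, and overlap elsewhere.

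Bmal1 encodes the shared partner of the activating pair. Its 1 probe set, 1370510_a_at, read 678, 466, 465, 531 and 438 in cafeteria islets, against 486, 638, 629.6 and 429 in standard islets. The groups overlapped over nearly their whole range, and the highest signal of all came from a cafeteria array. The means were 516 ± 96.9 in cafeteria islets (SD, n = 5) and 546 ± 104 in standard islets (SD, n = 4), a log2 fold of -0.08 ± 0.17 (SE). The 95% interval of the fold ran from 0.738 to 1.22, which leaves a lower or a higher signal within that span possible. Without standard replicate 2 the log2 fold was 0.0021.

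Clock encodes the other member of the pair and was read by 4 probe sets. The brightest, 1390199_at, read 1613, 1605, 1738, 1564 and 1449 in cafeteria islets, against 1441, 1521, 1494 and 1378 in standard islets. Of the 5 cafeteria signals 4 exceeded all standard ones, and cafeteria replicate 5 fell among them. The log2 fold was 0.13 ± 0.10 (SE), with an exact two-sided permutation p of 0.0635. Probe set 1389456_at ranged from 855 to 1118 in cafeteria islets and from 814 to 1057 in standard islets, with a log2 fold of 0.03 ± 0.12. Probe set 1380098_at ranged from 194 to 476 in cafeteria islets and from 276 to 368 in standard islets, with a log2 fold of -0.06 ± 0.22. Their small differences turned sign in other settings. The dim probe set 1369168_a_at, at 19.9 to 138 in cafeteria islets and 16.9 to 76.2 in standard islets, was not tested.

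Npas2 encodes a relative of CLOCK that can take its place beside BMAL1. Probe set 1383439_at read 366, 534, 417, 569 and 489 in cafeteria islets, against 586, 845, 595 and 549 in standard islets. Of the 5 cafeteria arrays 4 lay below every standard array, and standard replicate 2 stood well above the rest. The means were 475 ± 83.4 in cafeteria islets (SD, n = 5) and 644 ± 136 in standard islets (SD, n = 4). The log2 fold was -0.42 ± 0.17 (SE; unadjusted p = 0.0256 and adjusted p = 0.839 by limma), with an exact two-sided permutation p of 0.0317. Npas2 was the activator with the largest difference of the 3, in the direction of the Nr1d genes.

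Cry1, whose protein is the strongest repressor of the activating pair, had the highest log2 fold among the 15 probe sets. Probe set 1392640_at read 430.4, 343, 663, 611 and 587 in cafeteria islets, against 211, 311, 337 and 288 in standard islets. The groups did not overlap, although cafeteria replicate 2 exceeded standard replicate 3 only narrowly. Cafeteria replicates 3, 4 and 5 carried the high signals. The means were 527 ± 135 in cafeteria islets (SD, n = 5) and 287 ± 54.5 in standard islets (SD, n = 4), a 1.77-fold difference. The log2 fold was 0.82 ± 0.21 (SE; unadjusted p = 0.0015 and adjusted p = 0.839 by limma), with an exact two-sided permutation p of 0.0159. Cry1 was the 1 probe set of the 15 that was higher with no overlap, as were 0.999% of all tested probe sets.

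Cry2 encodes the second cryptochrome, and neither of its probe sets differed beyond the spread. Probe set 1372548_at read 833, 981, 822, 1034 and 1148 in cafeteria islets, against 873, 795, 899 and 994 in standard islets. The lowest and highest signals of both groups interleaved, and the log2 fold was 0.11 ± 0.13 (SE) with a 95% interval of -0.17 to 0.38. The dimmer 1369446_at ranged from 52.9 to 207 in cafeteria islets and from 117 to 176 in standard islets, with a log2 fold of -0.22 ± 0.30. Without cafeteria replicate 5, its lowest array, that value was 0.02.

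The 3 Per genes, whose proteins form the repressing complex with the cryptochromes, did not share a direction. Per1 probe set 1374855_at read 200.4, 412, 289.8, 619 and 635 in cafeteria islets, against 359.6, 195, 436 and 349 in standard islets. The cafeteria arrays spanned a wider range than the standard ones, with replicates 4 and 5 highest and replicate 1 almost as low as the lowest standard array. The log2 fold was 0.28 ± 0.32 (SE), with a 95% interval of -0.41 to 0.97 that leaves a change of either sign possible. It was 0.05 without standard replicate 2, 0.12 without either cafeteria replicate 4 or 5, and 0.51 without cafeteria replicate 1.

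Per2 probe set 1368303_at, a direct target of the activating pair, read 632, 1184, 1176, 1254 and 906 in cafeteria islets, against 709.6, 699, 474 and 681 in standard islets. All cafeteria arrays except replicate 1 exceeded every standard array, and standard replicate 3 stood below the rest. The means were 1030.3 ± 259 in cafeteria islets (SD, n = 5) and 641 ± 112 in standard islets (SD, n = 4), a 1.57-fold difference. The log2 fold was 0.65 ± 0.20 (SE; unadjusted p = 0.0063 and adjusted p = 0.839 by limma), with an exact two-sided permutation p of 0.0476. The second Per2 probe set, 1378560_at, was dim at 19.8 to 77.3 in cafeteria islets and 15.7 to 113 in standard islets, and was not tested.

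Per3, which is largely dispensable for rhythms in mice, lay the other way. Probe set 1378745_at read 144, 355, 80.7, 98.1 and 202 in cafeteria islets, against 406, 245, 167 and 361 in standard islets. Cafeteria replicates 3 and 4 were lowest, cafeteria replicate 2 lay near the top of the standard range, and the groups overlapped. The means were 176 ± 110.4 in cafeteria islets (SD, n = 5) and 295 ± 109 in standard islets (SD, n = 4), a log2 fold of -0.79 ± 0.37 (SE; unadjusted p = 0.0493 and adjusted p = 0.839 by limma). The exact two-sided permutation p was 0.127. Its second probe set, 1388239_at, was dim at 8.5 to 75.3 in cafeteria islets and 6.7 to 38.8 in standard islets, and was not tested.

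Nr1d1 encodes REV-ERB alpha, a haem-binding nuclear receptor whose gene is driven through E-boxes and which represses Bmal1 through ROR elements. Probe set 1370816_at read 306, 283, 94.4, 139 and 329 in cafeteria islets, against 780.0, 479.9, 403 and 725 in standard islets. The groups did not overlap: the highest cafeteria array lay below the lowest standard array. Within each diet the arrays still spread widely, with cafeteria replicates 3 and 4 lowest and standard replicates 1 and 4 highest. The means were 230.2 ± 106 in cafeteria islets (SD, n = 5) and 597 ± 184 in standard islets (SD, n = 4), which is 2.64-fold lower in cafeteria islets. The log2 fold was -1.40 ± 0.33 (SE; unadjusted p = 0.0010 and adjusted p = 0.839 by limma), with a 95% interval of -2.12 to -0.68. The exact two-sided permutation p was 0.0079, the smallest that 5 and 4 arrays can give.

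Nr1d2 encodes REV-ERB beta, which shares those targets, and its 3 probe sets had log2 folds of one sign. Probe set 1370541_at read 591, 669, 442, 492 and 617 in cafeteria islets, against 1126, 827, 827 and 906 in standard islets. The groups did not overlap, and the log2 fold was -0.70 ± 0.15 (SE; unadjusted p = 0.0004 and adjusted p = 0.839 by limma), with an exact two-sided permutation p of 0.0079. The brighter 1390430_at read 919, 1019, 884, 793 and 1195 in cafeteria islets, against 2076, 1172, 1284 and 1698 in standard islets. Only cafeteria replicate 5 reached into the standard range, just above standard replicate 2, and the log2 fold was -0.66 ± 0.17. The dimmer 1370540_at read 146, 76.0, 45.1, 84.5 and 85.4 in cafeteria islets, against 115, 212, 207 and 170.1 in standard islets. Here cafeteria replicate 1 lay above standard replicate 1, and the log2 fold was -0.93 ± 0.28. The exact two-sided permutation p of both was 0.0238. Nr1d1 and Nr1d2 1370541_at were the 2 probe sets of the 15 that were lower with no overlap, as were 0.762% of all tested probe sets.

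**Figure D2:**
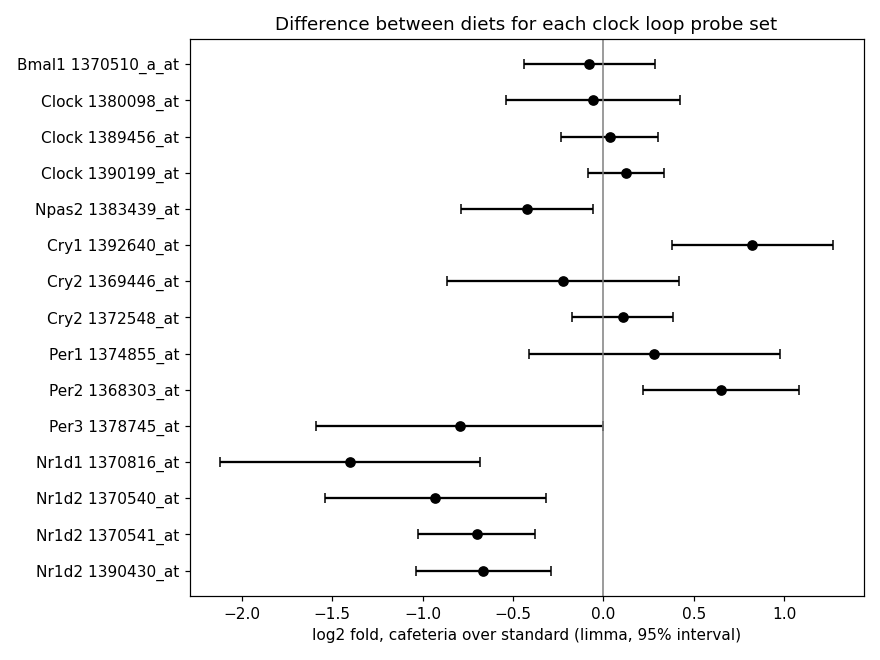
Log2 fold of cafeteria over standard for the 15 tested probe sets, with the 95% interval from limma; the vertical line marks no difference. Nr1d1 lies farthest to the left at -1.40 and Cry1 farthest to the right at 0.82, while the interval of Bmal1 spans 0.

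Set as a whole against the activators, the repressors gave nearly the same mean score in both diets. On each array the genes were centred on their mean over the 9 arrays, with the brightest probe set standing for each gene, and averaged by role. Activators minus all 7 repressors gave 0.01 ± 0.29 in cafeteria islets (SD, n = 5) and -0.01 ± 0.39 in standard islets (SD, n = 4) on the log2 scale, a difference of 0.02 that turned sign when single arrays were left out (-0.11 to 0.16). Split by family, the averages of the repressors differed in opposite directions, but the Cry and Per genes did not move as 1. Their log2 folds were 0.82 for Cry1, 0.65 for Per2, 0.28 for Per1, 0.11 for Cry2 and -0.79 for Per3. The Cry and Per genes averaged 0.09 in cafeteria islets and -0.12 in standard islets, with overlap, while Nr1d1 and Nr1d2 averaged -0.46 ± 0.45 in cafeteria islets and 0.57 ± 0.40 in standard islets, with none. Cry and Per minus Nr1d1 and Nr1d2 was 0.55 ± 0.48 in cafeteria islets and -0.69 ± 0.28 in standard islets. That score lay between -0.10 and 1.10 on the cafeteria arrays and between -1.05 and -0.41 on the standard arrays, so the groups stood apart by 1.24 on average. Activators minus Nr1d1 and Nr1d2 differed by 0.91 and activators minus Cry and Per by -0.34, both with overlap. Without standard replicate 2 the second was -0.21. As scores over chosen genes these have no test, and the share of other gene sets whose scores separate was not computed. Nr1d1 alone separated the diets in 59.3% of its ratios to all other tested probe sets, and Nr1d2 in 28.6%. The separation of scores that hold these genes is therefore not read as a result about the clock.

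Ratios formed on a single array do not depend on how that array was scaled, and only their difference between arrays is read here. Of the 45 pairs of genes, 12 had ratios that did not overlap between the diets. The share over pairs of other probe sets was not computed, so this count is not read as a result about the clock. Shares over all tested probe sets are given below for some of the genes. The ratio of Cry1 to Nr1d1 was 1.24 ± 1.03 in cafeteria islets (SD, n = 5) and -0.99 ± 0.70 in standard islets (SD, n = 4) on the log2 scale, a difference of 2.22. The ratio of Per2 to Nr1d1 differed by 2.05, at 2.18 ± 1.03 in cafeteria islets and 0.13 ± 0.31 in standard islets, also with no overlap. Per1 to Nr1d1 differed by 1.68, but cafeteria replicate 1 lay within the standard range. Against Nr1d2, the ratio of Cry1 differed by 1.49 and that of Per2 by 1.31, both with no overlap, and that of Per1 by 0.94 with overlap.

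Ratios among the Cry and Per genes themselves mostly overlapped. Cry1 to Per2 differed by 0.18, Per2 to Per1 by 0.37, Cry1 to Per1 by 0.54 and Cry1 to Cry2 by 0.72, each with overlap. The exception was Per2 to Per3, which was 2.58 ± 0.90 in cafeteria islets (SD, n = 5) and 1.14 ± 0.35 in standard islets (SD, n = 4), a difference of 1.44 with none. Within the nuclear receptors, Nr1d1 to Nr1d2 differed by -0.74, at -2.11 ± 0.60 in cafeteria islets and -1.37 ± 0.19 in standard islets, and overlapped.

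Bmal1 formed no ratio that separated the diets in its 9 pairs, against 0.403% of its ratios to all other tested probe sets. The ratio of Nr1d1 to Bmal1 differed by -1.32, that of Cry1 by 0.90 and that of Per2 by 0.72. The smaller differences were -0.72 for Per3, -0.59 for Nr1d2, 0.36 for Per1, -0.35 for Npas2, 0.20 for Clock and 0.18 for Cry2. The groups overlapped in all 9.

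Most of the separated ratios held a gene whose ratios to any gene often separate. Nr1d1 had 4 of 9, against 59.3% of its ratios to all other tested probe sets, Nr1d2 had 3 of 9 against 28.6%, and Cry1 had 3 of 9 against 32.9%. These shares lay near or below their backgrounds and say nothing particular about the clock. Per2 had 4 of 9 against 9.02%, and Npas2 had 4 of 9 against 10.1%. The 4 of Per2 were those to Npas2, Per3, Nr1d1 and Nr1d2, all higher in cafeteria islets. The 4 of Npas2 were those to Clock, Cry1, Cry2 and Per2, all lower, with Clock over Npas2 differing by 0.55. Among these partners, Nr1d1, Nr1d2 and Cry1 are genes whose ratios often separate, and the pair of Per2 and Npas2 counts for both. The backgrounds of Per2 and Npas2 do not allow for this, so their shares are not read as particular to the clock either. When all probe sets of a gene were averaged in place of the brightest, 7 of the 45 pairs did not overlap.

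**Figure D3:**
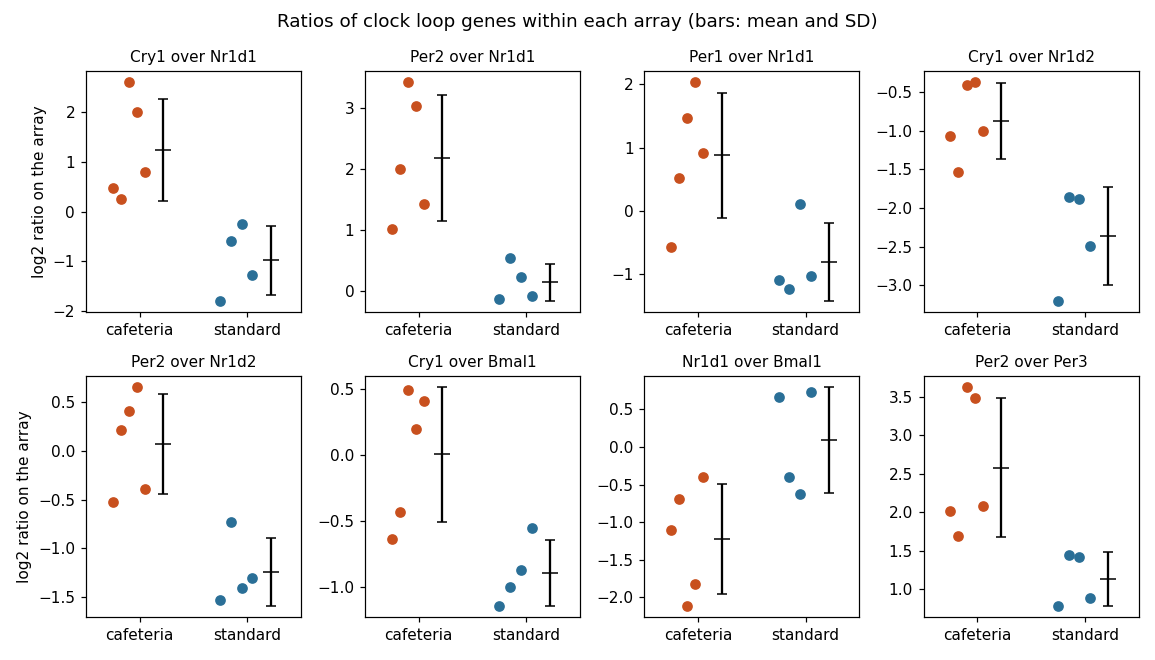
Log2 ratio of 2 clock genes on each array for 8 of the 45 pairs, 5 cafeteria arrays left and 4 standard arrays right, with mean and SD; the level of a ratio also reflects the probes, so only differences between arrays are read. Cry1 over Nr1d1 and Per2 over Nr1d1 separate the diets by 2.22 and 2.05, while Cry1 over Bmal1 and Nr1d1 over Bmal1 overlap.

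The arrays of each diet also differed among themselves, with several clock genes moving together. Among the standard arrays, replicates 1 and 4 had more Nr1d1, Nr1d2 (1390430_at) and Per3 signal and less Bmal1 signal than replicates 2 and 3. Their centred log2 signals were 1.21 and 1.10 for Nr1d1, against 0.52 and 0.28 on replicates 2 and 3. For Bmal1 they were -0.10 and -0.27, against 0.28 and 0.26. Among the cafeteria arrays, replicates 3 and 4 had the lowest Nr1d1, at -1.64 and -1.16, the lowest Per3, at -1.17 and -0.93, and the highest Cry1, at 0.73 and 0.61. The range of Nr1d1 within cafeteria islets was therefore wider than the mean difference between the diets, 1.40 on the same scale. The groups were named by diet alone, and these arrays were picked out after their values were seen.

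**Figure D4:**
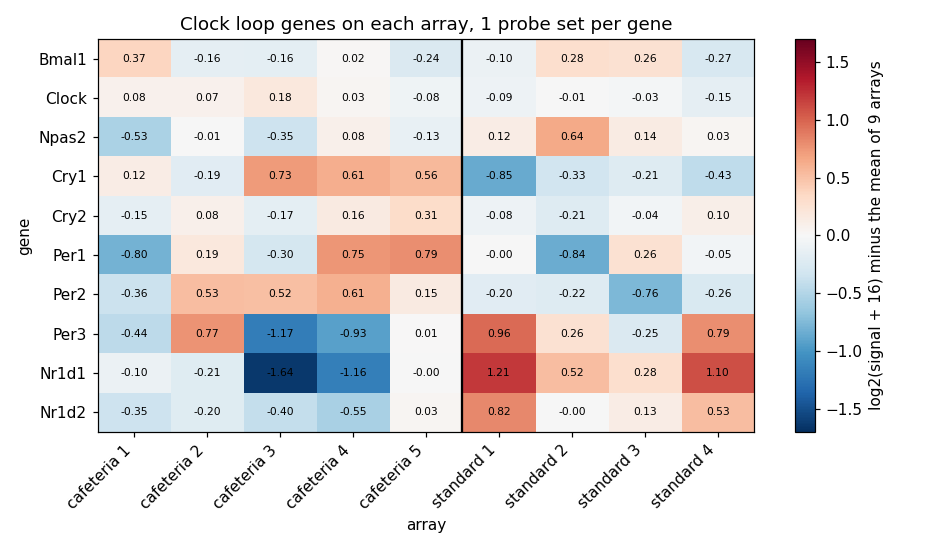
Log2 signal of each clock gene minus its mean over the 9 arrays (colour and number), 1 probe set per gene, cafeteria arrays left of the line and standard arrays right of it. Nr1d1 is lowest on cafeteria 3 (-1.64) and highest on standard 1 (1.21), and Per3 is lowest (-1.17) and highest (0.96) on those same arrays.

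Over the 9 arrays, the probe set most like Nr1d1 among 14052 tested probe sets with 1 symbol was Nr1d2 1370541_at, with Pearson r = 0.957. These correlations describe 9 arrays that share a diet difference, which alone can align genes, so r is also given after each group's mean was removed, where it was 0.899. Per3 had r = 0.862 with Nr1d1 (0.832 with group means removed) and ranked 60 of 14052 from the top. Cry1 had -0.887 (-0.697 with group means removed), which ranked 28 from the bottom. Clock 1390199_at had -0.840 (-0.696 with group means removed) and Per2 -0.691 (-0.298 with group means removed). The other tested Clock probe sets did not follow, at -0.198 for 1389456_at and 0.177 for 1380098_at. Bmal1, at 0.02, and Per1, at -0.17, did not follow Nr1d1 on these arrays. With group means removed both turned sign, to -0.18 for Bmal1 and 0.05 for Per1.

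Outside the loop, the probe sets most like Nr1d1 were those of Tle3, a corepressor (0.953), Tmem229b (0.948), Rpl22, a ribosomal protein (0.937), and Pla2g6, a phospholipase (0.929). The most opposite were Fam98a (-0.963), Sucla2, a subunit of a citric acid cycle enzyme (-0.945), ST7 (-0.942), Spryd7 (-0.938) and LOC102547287 (-0.936). Cry1 was most like Cptp, a lipid transfer protein (0.987), then Lrrc59 (0.956), Rnf26 (0.954), Capza2 (0.944) and Pros1 (0.941). Its most opposite probe sets were Ptprd (-0.955), Psen2 (-0.954), Nr1d2 1370541_at (-0.950), Fstl4 (-0.935) and Tle3 (-0.929). Nr1d2 and Tle3 thus stood at the top for Nr1d1 and at the bottom for Cry1. Bmal1 drew a different set, with Cog4 (0.972), Slc15a4 (0.964), Rab5b (0.953), Fam107b (0.952) and Plpbp (0.942) at the top. At its bottom stood Psme4 (-0.941), Ttc3 (-0.939), Alg9 (-0.933), Napa (-0.932) and Arl6ip5 (-0.931), and no other clock loop gene was among these 10. With group means removed the correlations named in this paragraph kept their sign, and the smallest in size was that of Fstl4 with Cry1 (-0.808). The named probe sets are the extremes of 14052 correlations over 9 arrays, where values of this size can arise by chance.

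**Figure D5:**
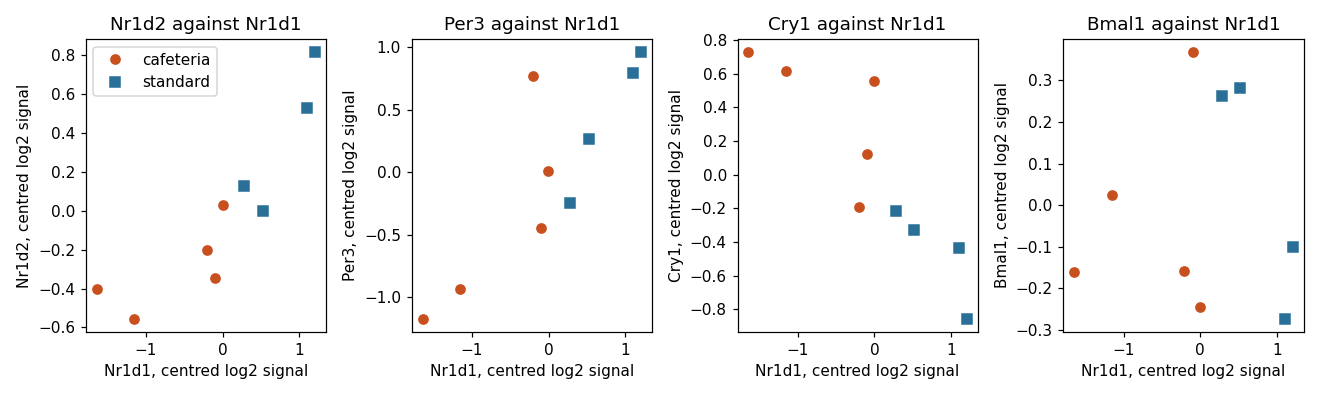
Nr1d2 (1390430_at), Per3, Cry1 and Bmal1 against Nr1d1, as log2 signal minus the mean over the 9 arrays; circles are cafeteria and squares standard arrays. Nr1d2 and Per3 rise along Nr1d1 (r = 0.886 and 0.862), Cry1 runs against it (r = -0.887) and Bmal1 shows no slope (r = 0.02).

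Other genes of the clock, listed from textbook knowledge, had smaller differences. Of 31 genes 26 had a named probe set and 21 had a tested one, 39 probe sets in all. None passed at an adjusted p under 0.05. At an unadjusted p under 0.05, 0 were higher and 2 lower, or 5.13% of the 39 against 5.80% of all tested probe sets. The median size of the log2 fold was 0.10, close to the 0.13 of all tested probe sets. By the p-values and the sizes of the folds, the list lay near the background.

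The 2 lower probe sets belong to the PAR bZIP factors, which act on D-boxes. Tef 1390819_at read 479, 415, 379, 429.7 and 412 in cafeteria islets, against 586, 579, 551 and 503 in standard islets, with no overlap. Its log2 fold was -0.38 ± 0.12 (SE; unadjusted p = 0.0086 and adjusted p = 0.839 by limma). Dbp 1387874_at, a classical E-box target, read 252, 203, 112, 203 and 205 in cafeteria islets, against 359, 307, 207 and 369 in standard islets. Standard replicate 3 fell among the cafeteria arrays, and the log2 fold was -0.64 ± 0.23 (unadjusted p = 0.0168 and adjusted p = 0.839 by limma). The third member, Hlf, had log2 folds of 0.33, 0.14 and 0.14 on its 3 tested probe sets, so the family did not share a direction. Dimmer probe sets below the filter were not tested: Hlf 1384811_at differed by 0.57, Tef 1369919_at by -0.20 and Tef 1385374_at by 0.36. Nfil3, the repressor of D-boxes, had -0.32 ± 0.18.

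The ROR receptors, which activate through the elements that the Nr1d proteins repress, were read through Rora, with log2 folds of -0.29 ± 0.34 (1379397_at) and -0.05 ± 0.29. The first was -0.71 without standard replicate 1 and -0.07 without standard replicate 3, and without the 3 arrays of highest beta-actin ratio it was -0.79 (unadjusted p = 0.0110 and adjusted p = 0.860 by limma). Bhlhe41 (DEC2), an E-box repressor, had -0.14 ± 0.14, and Cipc, an inhibitor of CLOCK, had 0.16 ± 0.11. The 14 probe sets of kinases that act on PER, CRY or other clock proteins ranged from -0.89 to 0.10. The lowest was Csnk1e 1386693_at, at 82.1 ± 46.5 in cafeteria islets (SD, n = 5) and 142 ± 16.2 in standard islets (SD, n = 4) with no overlap, while the brighter Csnk1e probe set had -0.03 ± 0.15. Without cafeteria replicate 5, which read 10.9, this value was -0.48, and without the 3 arrays of highest beta-actin 3'/5' ratio it was -0.33. Tef and this Csnk1e probe set were the 2 of the 39 that were lower with no overlap, where 0.762% of all tested probe sets were. The 11 probe sets of complex partners and corepressors ranged from -0.19 to 0.29.

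Several other measures moved with the diets beside these differences. The 10 macrophage markers had mean log2 signals that were lower in cafeteria islets by at most 0.95, with Cd68 at a difference of -0.0039, and their summed signals were 4409 to 7632 in cafeteria islets and 7911 to 13923 in standard islets. All 7 named lymphocyte markers were lower too, at 445 to 662 in cafeteria islets and 672 to 3385 in standard islets. All 10 immediate early genes, which respond to handling of tissue, had lower mean signals and summed to 13089 to 31909 in cafeteria islets and 17174 to 58665 in standard islets. The highest sum came from standard replicate 1, which also had the highest Nr1d1 and Nr1d2 (1390430_at) signals and the lowest Cry1 signal. Its signal of Nr1d2 1370540_at was the lowest of the standard arrays, at 115. Other arrays did not follow this order. The next highest sum, 31909, came from cafeteria replicate 2, with an Nr1d1 signal of 283. The lowest standard sum, 17174, came from standard replicate 4, with an Nr1d1 signal of 725. No marker of these lists was at 0 on any array. Their part in the Nr1d1, Nr1d2, Cry1 and Per2 differences was not tested.

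Islet endocrine markers marked the tissue and did not separate the diets, at sums of 224093 to 317956 in cafeteria islets and 215775 to 305239 in standard islets. Their probe sets lay between percentiles 89.9 and 99.98 of mean signal. Acinar sums ran from 2629 to 9480 in cafeteria islets and from 3225 to 8889.6 in standard islets, with medians of 8063 and 4653. Of the 11 named acinar genes, 9 had higher mean log2 signals in cafeteria islets and 2 lower, with a median log2 fold of 0.43. Duct sums ran from 2985 to 4387 in cafeteria islets and from 3599.8 to 6743 in standard islets. Endothelial sums ran from 6005 to 7150.0 in cafeteria islets and from 6111 to 7424 in standard islets, and fibroblast sums from 5658 to 14269 in cafeteria islets and from 8256 to 10264 in standard islets.

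Array medians lay between 147 and 167, and arrays correlated with one another at 0.941 to 0.974. The 3'/5' ratio of beta-actin, which is higher where RNA is more degraded, was 2.79 to 5.63 in cafeteria islets and 3.00 to 4.84 in standard islets. Without the 3 arrays with the highest ratios (cafeteria replicates 3 and 5 and standard replicate 1), the log2 fold was -1.12 for Nr1d1, -0.59 for Nr1d2 1390430_at, 0.67 for Per2, 0.51 for Cry1 and -0.47 for Per3. Without those arrays Dbp had -0.37. All of these values except that of Per2 lay nearer to 0 than over all arrays. Of the arrays left out, cafeteria replicate 3 and standard replicate 1 held the extreme signals of Cry1 and Per3. With the log2 of that ratio as a covariate over all arrays, the log2 folds were -1.37 for Nr1d1, -0.68 for Nr1d2 1390430_at and 0.62 for Per2. In that fit Cry1 had 0.81, Per3 had -0.79 and Dbp had -0.60. The part of RNA quality in these differences was not tested.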

How the data were processed

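Islet RNA of 5 cafeteria-fed and 4 standard-fed rats was read on single-colour Affymetrix Rat Genome 230 2.0 arrays. The deposited values are linear intensity signals, with MAS5 named in the submitters' processing notes; the sources used here do not give its version or settings. The mean of each array, trimmed by 2% at each end, was 500.0, so no further scaling was applied. Arrays have no read depth, and their number limits the precision. The labels call the samples biological replicates.

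The 57 control probe sets of 31099 were left out. The platform annotation gave 20826 of the remaining 31042 a single symbol, 436 several and 9780 none. Signals were tested as log2(signal + 16), a scale that understates the change of dim genes, with limma 3.58.1 under R 4.3.3, fitting diet alone and an intensity trend. Benjamini-Hochberg adjustment covered the 18625 probe sets at or above the 40th percentile of mean log2 signal (a signal of 91.1). Single values were tested by exact permutation over 126 splits (smallest two-sided p 0.0079). The fit was tested on simulated data.

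The members, gene lists and tests were chosen with earlier results of these data known. Every member probe set is named, other clock genes are named by role if tested, and for likeness the 5 highest and 5 lowest Pearson correlations with Nr1d1, Cry1 and Bmal1 are named. Scores and ratios used the probe set with the highest mean of each gene. Promoter windows are RefSeq's for GRCr8, matched by symbol; ratios, motifs and plots were made in Python 3.11.15.

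The alternatives tried were pseudocounts of 1 and 64, scaling by quantiles or medians, no filter or one at the 60th percentile, other variance models, array weights, leaving out each array and the replicate number as a block. Same-numbered arrays had deviations correlating at -0.38, -0.05, -0.12 and 0.03. The titles give only a replicate number, and so few correlations cannot settle whether equal numbers pair the samples.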

Additional observations from a re-analysis of the deposited data

Results flagged for a closer look

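The log2 signals of 3 probe sets each had 1 array away from its own group by Dixon's gap ratio, the distance to the nearest array divided by the group's range, among 40 groups examined. Chance alone marks about 1 in 20 groups. For Per2 1368303_at, standard replicate 3 lay at a log2 signal of 8.94, below the rest of a group that reached 9.50 (gap ratio 0.899). For Clock 1389456_at, standard replicate 2 lay at 9.70 in a group that reached 10.07 (gap ratio 0.923). For the dim Clock 1369168_a_at, which was not tested, standard replicate 1 lay at 5.04 in a group that reached 6.53 (gap ratio 0.852). Without standard replicate 3 the log2 fold of Per2 was 0.51.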

How the results depend on the processing

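None of the member probe sets passed the adjusted threshold under any alternative run, and between 6 and 8 of them had an unadjusted p under 0.05 in limma. Over all tested probe sets, leaving out 1 array gave 0 to 2 calls, the 2 without standard replicate 2 (lowest adjusted p 0.0273). Nr1d1, Nr1d2, Cry1, Per2, Per3 and Npas2 kept their sign in each alternative. Leaving out 1 array gave log2 folds of -1.57 to -1.14 for Nr1d1, 0.69 to 0.96 for Cry1, 0.51 to 0.81 for Per2, -1.08 to -0.59 for Per3 and 0.05 to 0.51 for Per1.

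Small differences turned sign, among them activators minus repressors (-0.11 to 0.16 with 1 array left out). Leaving out 1 array moved Bmal1 between -0.18 and 0.0021, Clock 1389456_at between -0.055 and 0.092, Clock 1380098_at between -0.23 and 0.077, and Cry2 1369446_at between -0.40 and 0.018. Without the 3 arrays of highest beta-actin ratio, an alternative chosen after seeing the data, as was that ratio as a covariate, Clock 1380098_at had 0.19. The cause was not tested. Averaging all probe sets of a gene left 7 pairs of ratios without overlap in place of 12. Leaving out 1 array gave 12 to 18 such pairs.

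Whether arrays of the same replicate number belong together is not known from the titles. With the replicate block, in which cafeteria replicate 5 has no partner, none was called (lowest adjusted p 0.0811), 582 of 18625 probe sets had an unadjusted p under 0.05 against 1080 without it, and 8 of 15 members did. Clock 1380098_at then had 0.077 and Cry2 1369446_at 0.018. No standard array correlated best with its own number. With 9 arrays and dim probe sets, small differences were not detectable.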
